A study of Mus musculus with 2 samples.

Results

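The 6 genes described here, Camk2a, Camk2b, Camk2d, Camk2g, Camk4 and Camk1d, encode catalytic subunits of calcium/calmodulin-dependent protein kinases (CaM kinases). They were chosen by symbol, and all 6 were found in the gene names of both count tables, which list 32285 genes each. The choice applied no limit to a measured value, but earlier results of these data were known when it was made.

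CaM kinases are serine/threonine kinases that are switched on when calmodulin binds calcium. CaMKII, built from the products of Camk2a, Camk2b, Camk2d and Camk2g, is a large holoenzyme whose subunits phosphorylate one another, and in forebrain neurons the Camk2a and Camk2b products are abundant at excitatory synapses, where they take part in long-term potentiation. The Camk2d and Camk2g products are found in many tissues, the Camk4 product is a largely nuclear kinase that phosphorylates CREB, and the Camk1d product is a member of the CaMKI group, which like the Camk4 product is activated by upstream CaM kinase kinases.

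The data were single-nucleus RNA-seq counts from 2 fresh-frozen mouse brain sections processed by Slide-tags, in which nuclei take up spatial barcodes from a bead array before droplet capture. The adult library came from the hippocampus region of an adult male C57BL/6J mouse of 56 days, and the E14 library from the brain of a C57BL/6J embryo at embryonic day 14 (E14), bought as snap-frozen whole embryos. No treatment or altered allele was part of either group. Each tissue was 1 library, so no p-value is given, all intervals are 95% and cover counting error only, and age, brain region and library cannot be told apart.

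After removal of barcodes with under 500 UMIs (unique molecular identifiers, 1 per captured RNA molecule) or a mitochondrial share of 5% or more, 1609 of 1661 adult barcodes and 9036 of 9037 E14 barcodes remained, with medians of 6607 and 4204 UMIs. Only 1 barcode sequence was shared by the libraries. Nuclei were put in classes from marker genes, none of them a CaM kinase gene. The adult classes were CA1-like (181 nuclei), CA3-like (34), dentate granule-like (403), cortical excitatory-like (31), thalamic-like (67) and inhibitory-like (31) neurons, together 747, and oligodendrocyte-like (239), oligodendrocyte precursor-like (31), astrocyte-like (114), microglia-like (39) and endothelial-like (54) nuclei. The E14 neurons, together 2930, were cortical excitatory-like (315), forebrain GABAergic-like (1234), thalamic-like (789), hypothalamic-like (371) and Cajal-Retzius-like (221). The other E14 classes were radial glia-like (478), intermediate progenitor-like (107), choroid plexus-like (76), fibroblast or mesenchyme-like (290), endothelial-like (123), mural-like (34), microglia or macrophage-like (74) and erythroid-like (165). The ending -like is left out from here on. Each class named had at least 3 of its markers detected. Markers of another type were also present in places: 39 of the 54 adult endothelial nuclei held at least 3 UMIs of mural cell markers, and the summed level of 6 pan-neuronal markers (Snap25, Syt1, Rbfox3, Celf4, Stmn2 and Dcx) was 2029 CPM (UMIs of the genes named per 1000000 UMIs of all genes) in microglia, 877 in astrocytes and 166 in oligodendrocytes against 4455 in the neurons. A further 317 adult barcodes with Malat1 under 1.5% of UMIs are described separately, because nuclear RNA is rich in the long non-coding RNA Malat1. A share of 15.9% of adult and 52.7% of E14 barcodes fitted no class.

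Camk2a was detected in nearly every adult excitatory nucleus of the hippocampus. Its level, summed over the nuclei of a class, was 1346 CPM (1316 to 1378) in dentate granule nuclei, 1235 (1198 to 1272) in CA1 and 1077 (1002 to 1156) in CA3. Single CA1 nuclei spread around that level, with quartiles of 1033, 1208 and 1442 CPM. The other neuron classes stood lower, and their intervals did not meet those of the 3 hippocampal classes. Thalamic nuclei were at 533, cortical excitatory nuclei at 469 and inhibitory nuclei at 311. In all, 180 of 181 CA1 nuclei and 23 of 31 inhibitory nuclei had a Camk2a UMI. With every nucleus thinned to 1000 UMIs these shares were 68.2% (of 179, 2 shallower nuclei left out) and 24.1% (of 29).

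Camk2a was also detected in glia, and the highest level of any adult class was that of astrocytes, 1734 CPM (1642 to 1830), against 216 in oligodendrocytes, the lowest. Endothelial nuclei, which are not a known site of Camk2a, held 526 CPM, and 55.6% of them had a UMI (28.8% after thinning, median depth before thinning 3916 UMIs against 5734 in astrocytes). Shares at or below that of endothelial nuclei, such as those of oligodendrocytes (11.0%), microglia (20.5%) and the inhibitory neurons above, are background by this measure. The astrocyte share after thinning was 57.1%. The UMIs of glia were not spread evenly: 5 nuclei held 87.7% of the 73 microglial UMIs and 76.4% of the 225 of oligodendrocyte precursors, against 24.3% of the 1330 of astrocytes. How these levels moved with the Malat1 share is given further on.

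Camk2b, whose product anchors CaMKII to actin filaments, was highest in dentate granule nuclei and lowest in oligodendrocytes. The levels were 629 CPM in dentate granule nuclei (608 to 649.9), 456 in CA1 and 308 in CA3. Thalamic nuclei were at 238 and cortical excitatory nuclei at 221, with overlapping intervals, and inhibitory nuclei were lower at 113. Glia held little: 154 in astrocytes and 20.6 in oligodendrocytes. The 304 CPM of microglia came from 8 of 39 nuclei, 5 of which held 94% of the UMIs.

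Camk2d set the adult neuron classes apart more than any other of the 6 genes. Thalamic nuclei held 687 Camk2d UMIs, or 501 CPM (464 to 539), and CA1 nuclei held 10 UMIs, or 2.90 CPM (1.39 to 5.33). A UMI was present in 64 of 67 thalamic nuclei and in 8 of 181 CA1 nuclei, at near-equal median depths of 18542 and 18561 UMIs. The level was thus 173 times as high in thalamic as in CA1 nuclei (93.4 to 362), or 80.6 times when the classes were taken from Louvain clusters instead. Dentate granule nuclei were also low at 15.6 CPM, while CA3 stood at 74.1, cortical excitatory nuclei at 82.7 and inhibitory nuclei at 147. Outside neurons the level was 358 in microglia, 179 in endothelial nuclei, 151 in astrocytes and 53.4 in oligodendrocytes. CA1 was therefore the lowest of all 11 adult classes for Camk2d, below glia and endothelium. Camk2a was detected in 66 of the 67 thalamic nuclei, so its presence in all 64 nuclei with Camk2d was nearly fixed in advance. By UMIs, 29 thalamic nuclei held more Camk2d than Camk2a, 34 held fewer and 4 held equal numbers. In CA1 and dentate granule nuclei 0 nuclei held more Camk2d than Camk2a UMIs.

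Camk2b and Camk2d are shown by their start regions because Camk2b was higher in CA1 and Camk2d in thalamic nuclei. Each stretch runs from 250 bases before to 50 bases after a RefSeq transcription start (GRCm38.p6), and capitals mark GC boxes, the letters GGGCGG or CCGCCC on either strand.
Camk2b, minus strand, chr11:6065699-6065998: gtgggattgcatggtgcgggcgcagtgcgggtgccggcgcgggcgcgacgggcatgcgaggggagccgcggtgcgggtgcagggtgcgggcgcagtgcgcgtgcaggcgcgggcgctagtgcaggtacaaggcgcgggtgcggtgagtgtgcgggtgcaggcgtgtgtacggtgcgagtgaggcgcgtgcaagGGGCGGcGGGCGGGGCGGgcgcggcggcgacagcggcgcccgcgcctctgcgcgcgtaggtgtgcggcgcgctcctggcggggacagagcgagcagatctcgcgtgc
Camk2d, plus strand, chr3:126596701-126597000: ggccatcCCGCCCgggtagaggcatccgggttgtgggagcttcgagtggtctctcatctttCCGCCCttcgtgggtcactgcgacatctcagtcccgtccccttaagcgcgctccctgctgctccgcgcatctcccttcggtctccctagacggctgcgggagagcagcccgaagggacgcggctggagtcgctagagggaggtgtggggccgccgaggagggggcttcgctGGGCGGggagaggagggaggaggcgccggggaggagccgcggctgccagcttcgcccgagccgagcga
The Camk2b stretch held 3 GC boxes, 51 CpG dinucleotides and 77.3% G or C. The Camk2d stretch held 3 GC boxes, 31 CpG dinucleotides and 70.3% G or C. Of 32851 RefSeq promoters of that length, 35.7% held a GC box, and the median promoter held 7 CpG dinucleotides and 52.7% G or C. The full cyclic AMP response element TGACGTCA was in neither stretch and in 1.79% of all promoters. In GENCODE the genes lie at chr11:5969644-6066362 on the minus strand and chr3:126596302-126846326 on the plus strand, Camk2g at chr14:20734875-20794088 on the minus strand and Camk1d at chr2:5293457-5714515 on the minus strand (GRCm38). An antisense gene lies within the Camk2d gene (Gm15551, with 9 adult and 97 E14 UMIs of its own) and another overlaps Camk4 (2310026I22Rik, 18 and 58 UMIs).

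Camk2g was the member that marked astrocytes. Its level was 424 CPM in astrocytes (379 to 472) and 151 in cortical excitatory nuclei, the next class. Dentate granule nuclei (128), inhibitory nuclei (131) and microglia (146) had overlapping intervals. CA1 (30.7), CA3 (39.2), thalamic (45.2) and oligodendrocyte nuclei (27.9) were low. A Camk2g UMI was present in 94 of 114 astrocytes and 21 of 239 oligodendrocytes, or 35.7% and 2.64% after thinning. Counted within nuclei, 78 of 114 astrocytes held more Camk2g than Camk2b UMIs and 16 held fewer, while in CA1 1 nucleus of 181 held more and 175 held fewer.

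Camk4 was highest in cortical excitatory and thalamic nuclei and nearly missing from oligodendrocytes and microglia. The levels were 343 CPM in cortical excitatory nuclei (296 to 395), 251 in thalamic nuclei (225 to 279) and 204 in CA3. CA1 stood at 148, inhibitory nuclei at 119.7 and dentate granule nuclei at 56.8. Dentate granule nuclei were thus the lowest neurons, with a UMI in 124 of 403 nuclei against 143 of 181 in CA1. Oligodendrocytes held 3 Camk4 UMIs in 239 nuclei and microglia 1 in 39, or 1.26% and 2.56% of nuclei with a UMI (median depths 3029 and 2288 UMIs). They were the lowest classes for the gene and shallower than every neuron class, so they are no independent background for it. Oligodendrocyte precursors held 106 CPM, from 13 of 31 nuclei. Their 5 highest nuclei held 62.5% of these UMIs, and the pan-neuronal markers stood at 1104 CPM there.

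Camk1d was highest in CA3, at 1001 CPM (929 to 1077), and second highest in microglia, at 699 (577 to 838). CA1 followed at 587, and thalamic (396), dentate granule (378) and cortical excitatory nuclei (377) had overlapping intervals. The microglial reads came from many nuclei, unlike those of Camk2b: 30 of 39 had a Camk1d UMI, and 5 nuclei held 45.2% of the UMIs. After thinning, 46.2% of microglia, 55.9% of CA3 nuclei and 4.41% of oligodendrocytes had a UMI. In thalamic nuclei the Camk1d level moved with depth, from 262 CPM in the 23 shallowest nuclei to 479 in the 22 deepest, whereas Camk2a went from 844 to 484 and Camk2d from 592 to 452. The part of depth in these levels was not tested.

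**Figure D1:**
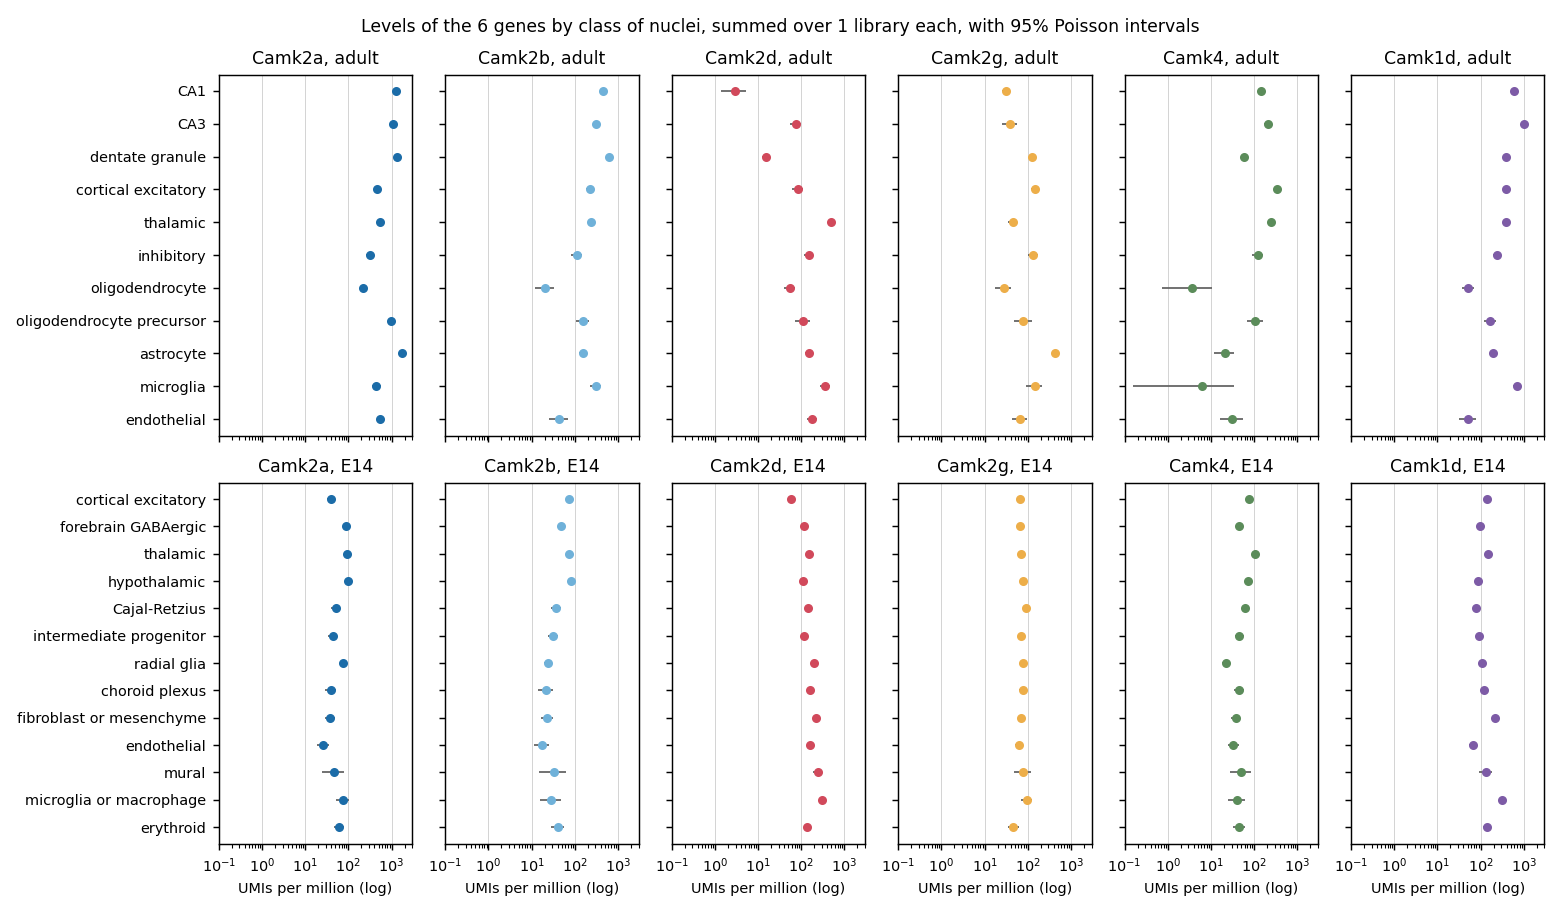
Level of each gene by class of nuclei in the adult library (top) and the E14 library (bottom), as CPM on a log axis, with points for summed counts of 1 library and bars for 95% Poisson intervals. Camk2d runs from 2.90 in adult CA1 to 501 in adult thalamic nuclei, a wider span than that of the other genes, and the E14 levels lie in narrower ranges.

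The balance among the 4 Camk2 genes differed from class to class. In CA1, Camk2a held 71.6% of the 5948 Camk2 UMIs (70.5 to 72.8), Camk2b 26.4%, Camk2g 1.78% and Camk2d 0.168%. In thalamic nuclei the shares were 40.5% for Camk2a (38.2 to 42.8), 38.0% for Camk2d (35.8 to 40.3), 18.1% for Camk2b and 3.43% for Camk2g. Dentate granule nuclei gave Camk2b its highest share among the adult classes, 29.7%. Inhibitory nuclei were the most even of the neurons, with 44.3% Camk2a, 21.0% Camk2d, 18.7% Camk2g and 16.1% Camk2b of 305 UMIs. Over all adult neurons Camk2a held 63.7% of 21201 UMIs and Camk2b 27.0%, a ratio of 2.36. In the summed UMIs of adult glia Camk2a held a like share, 67.9%, with Camk2g second at 14.7% and Camk2b at 8.27%, a Camk2a to Camk2b ratio of 8.21. Astrocytes gave 1889 of these 2660 UMIs. As a mean of nuclei the Camk2a share was 45.8% in glia and 61.4% in neurons. By that measure Camk2g held 24.5% and Camk2d 22.3% in glia.

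In the E14 library Camk2d held the largest share of Camk2 UMIs in 12 of 13 classes. Over E14 neurons it held 35.4% of 7151 Camk2 UMIs (34.3 to 36.5), Camk2a 24.4%, Camk2g 21.4% and Camk2b 18.8%. The share of Camk2d was 53.2% in radial glia, 62.9% in fibroblasts or mesenchyme and 60.2% in endothelial nuclei. The exception was the cortical excitatory class, in which Camk2b held 30.6%, Camk2g 28.1%, Camk2d 24.8% and Camk2a 16.5% of 715 UMIs. In hypothalamic nuclei the intervals of Camk2d (27.3 to 32.3) and Camk2a (24.1 to 29.0) overlapped. As a mean of nuclei, Camk2a led Camk2d in forebrain GABAergic nuclei (31.2% against 28.6%). Camk2g led Camk2d in intermediate progenitors by that measure (36.3% against 32.4%). These are shares of UMIs, of which a longer gene can give more: Camk2d holds 22.5 kb of exons and Camk2a 7.46 kb. On a scale of CPM and kb of exons, the E14 neuron levels were 11.0 for Camk2g, 10.8 for Camk2a, 6.80 for Camk2b and 5.18 for Camk2d, so Camk2d was then the lowest of the 4. In adult neurons the levels on that scale were 151 for Camk2a, 52.3 for Camk2b, 13.5 for Camk2g and 3.51 for Camk2d. In adult thalamic nuclei Camk2d stood at 22.3 per kb of exons, below Camk2a at 71.4 and Camk2b at 26.1.

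**Figure D2:**
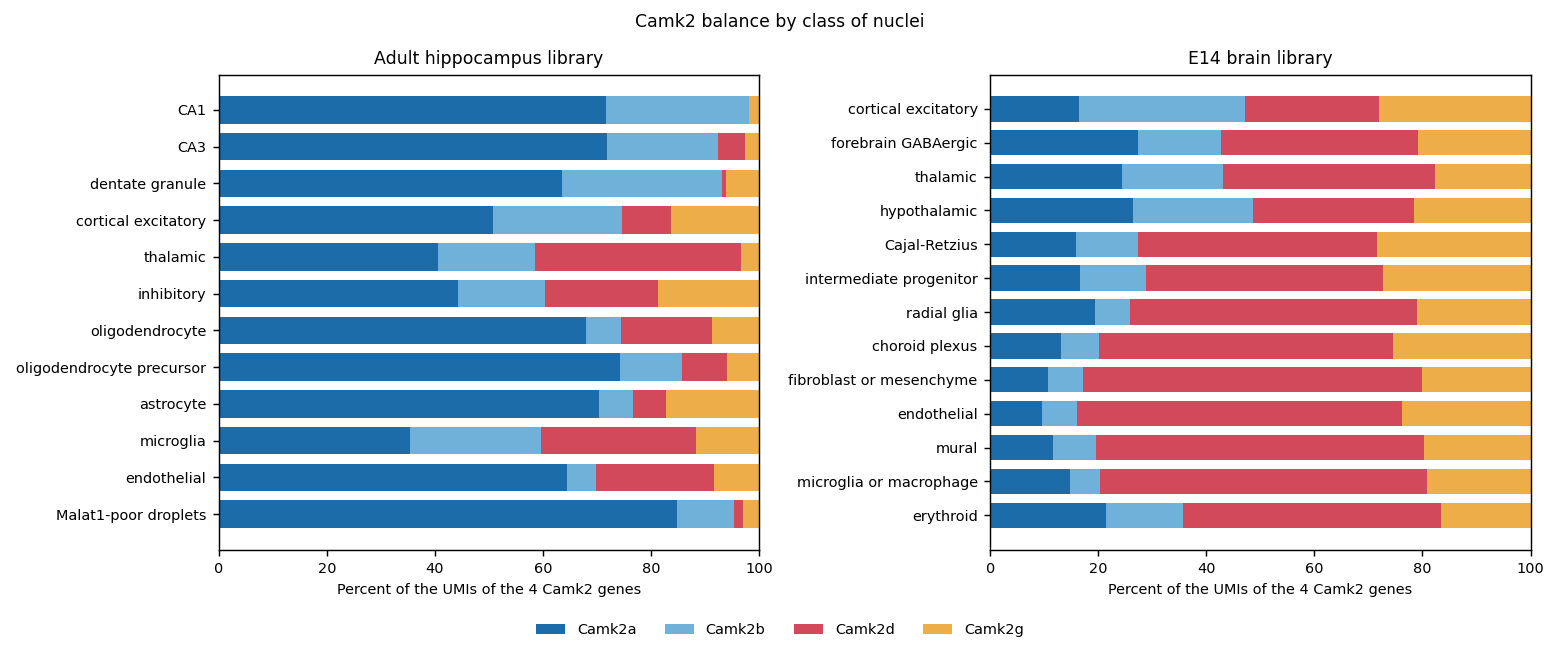
Share of each Camk2 gene in the UMIs of the 4 Camk2 genes together, in percent, by class of nuclei, for the adult library (left, with the Malat1-poor droplets in the last bar) and the E14 library (right). Camk2a takes 71.6% in adult CA1 and 84.9% in the Malat1-poor droplets, Camk2d 38.0% in adult thalamic nuclei, and Camk2d is the longest bar part in each E14 class but the cortical excitatory one.

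The next comparisons set classes against each other, and a gene was called past the fold when its CPM differed at least 2-fold. In adult neurons over adult glia (747 and 423 nuclei), 3 of the 6 genes were at least 2-fold higher and 1 was at least 2-fold lower, while of all 13420 genes with at least 50 UMIs 17.0% were higher and 18.9% lower. Camk4 was 5.84 times as high (4.33 to 8.06), Camk2b 4.30 times (3.76 to 4.94) and Camk1d 2.73 times (2.45 to 3.05). Camk2g was 2.28 times as high in glia (2.02 to 2.56), but its neuron over glia ratio was 0.581, not 2-fold, when every nucleus had equal weight. Camk2a, the most counted of the 6 in both groups, was 1.24 times as high in neurons, or 2.03 times with only barcodes of a mitochondrial share under 1%, and Camk2d was 1.56 times as high in glia. The 114 astrocytes gave most glial UMIs of both genes of highest astrocyte level, 325 of 390 for Camk2g and 1330 of 1806 for Camk2a. In oligodendrocytes, 239 of the 423 glia, these genes were lower than in neurons. Camk2g stood there at 27.9 against 86.5 CPM, and Camk2a at 216 against 1127. In this comparison the pan-neuronal markers stood at 704 CPM in glia, and their part in the glial levels was not tested.

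Within the hippocampus, CA1 over dentate granule nuclei (181 and 403), 1 of the 6 genes was at least 2-fold higher and 2 were at least 2-fold lower, against 6.92% and 11.0% of 11366 genes. Camk4 was 2.60 times as high in CA1 (2.25 to 3.00). Dentate granule nuclei held 5.38 times as much Camk2d (2.79 to 11.6, from 85 UMIs against 10) and 4.17 times as much Camk2g (3.40 to 5.17). The neuronal isoforms differed less, with Camk2a 1.09 times and Camk2b 1.38 times as high in dentate granule nuclei.

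In adult thalamic over CA1 nuclei, 1 gene of the 6 was at least 2-fold higher, Camk2d, and 1 was at least 2-fold lower, Camk2a, against 12.8% and 12.9% of 9625 genes. The Camk2d ratio was above that of 99.5% of these genes. Thalamic and CA1 nuclei were the highest and lowest of the 11 adult classes for Camk2d, so a high rank is partly built into this pair. CA1 nuclei held 2.31 times as much Camk2a (2.14 to 2.51), just under 2-fold with equal weight for every nucleus (thalamic over CA1 ratio 0.505), and 1.91 times as much Camk2b (1.70 to 2.16). Thalamic nuclei held 1.70 times as much Camk4 and 1.47 times as much Camk2g (1.06 to 2.03).

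In the E14 brain the range between classes was small. Camk2a ran from 25.7 CPM in endothelial to 96.4 in hypothalamic nuclei, with overlapping intervals between all 12 pairs of neighbours in that order. Camk2b ran from 17.1 in endothelial to 80.4 in hypothalamic nuclei. Of the neuron classes 4 stood highest for Camk2b, after the hypothalamic one thalamic 72.4, cortical excitatory 71.8 and forebrain GABAergic 48.6 CPM, while Cajal-Retzius nuclei at 37.1 lay below erythroid nuclei at 40.5, with overlapping intervals, and radial glia stood at 24.4. Camk2d was ordered otherwise, lowest in cortical excitatory nuclei at 58.0 (49.8 to 67.2), 151 in thalamic nuclei, 201 in radial glia and highest in microglia or macrophages at 303 (257 to 355). Camk2g was the flattest, from 46.7 in erythroid nuclei to 95.7 in microglia or macrophages. Camk4 was highest in thalamic nuclei at 102 and lowest in radial glia at 22.5. Camk1d was highest in microglia or macrophages at 309 and fibroblasts or mesenchyme at 210.1, and its other classes lay between 67.3 and 152.

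The E14 shares of nuclei with a UMI of a gene need to be read beside those of erythroid nuclei, red blood cell precursors that are not known for CaMKII. For Camk2a 33.1% of neurons (median depth 5084 UMIs) and 17.6% of erythroid nuclei (median depth 1017) had a UMI. After thinning to 1000 UMIs the shares were 7.20% and 10.5%, with 55 of 2930 neurons and 79 of 165 erythroid nuclei left out as shallower. By this measure the E14 neuron shares of Camk2a, Camk2b (5.98% and 6.98%) and Camk2d (9.74% and 12.8%) were at or below the erythroid background, and Camk1d matched it (10.6% and 10.5%). Camk4 (5.18% and 3.49%) and Camk2g (6.33% and 2.33%) stood above it. All these erythroid shares rest on few nuclei with a UMI and are given without intervals, so the orders are uncertain. The summed Camk2b level, given above, was lower in erythroid nuclei than in most neuron classes, unlike its thinned share. Erythroid nuclei are also not the lowest reference. Of the 13 classes the deeper endothelial nuclei (median depth 8449 UMIs) had the lowest summed Camk2a and Camk2b levels, 25.7 and 17.1 CPM. Their Camk2d level was 161 CPM, and their thinned shares are not given here. The erythroid comparison alone therefore does not show that the neuron counts of Camk2a and Camk2b are background.

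In E14 neurons over radial glia (2930 and 478 nuclei), 2 of the 6 genes were at least 2-fold higher and 0 at least 2-fold lower, against 12.2% and 13.8% of 14924 genes. The genes were Camk4, 3.05 times as high (2.44 to 3.85), and Camk2b, 2.54 times (2.05 to 3.18). Radial glia held 1.73 times as much Camk2d (1.59 to 1.88). The ratios of Camk2a (1.10, 0.964 to 1.25), Camk2g (0.887, 0.782 to 1.01) and Camk1d (1.05, 0.945 to 1.17) had intervals that held 1.

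In adult neurons over E14 neurons, Camk2a and Camk2b had their largest ratios of the 7 comparisons drawn against all genes, with 3 of the 6 genes at least 2-fold higher and 0 at least 2-fold lower, against 16.1% and 22.9% of 15720 genes. Camk2a stood at 1127 CPM in adult and 80.5 in E14 neurons, a ratio of 13.99 (13.3 to 14.7). Camk2b stood at 477 and 62.0, a ratio of 7.69, and Camk1d at 472 and 112, a ratio of 4.20. Camk4 was 1.89 times as high in the adult, Camk2g 1.23 times, and Camk2d was 1.48 times as high at E14. With Malat1-poor set at under 3%, the adult over E14 ratio of Camk2d was 0.463. That limit took 32 of the 67 thalamic nuclei, with 304 of their 687 Camk2d UMIs, out of the adult neurons. The adult neurons were mostly hippocampal and the E14 neurons came from 5 forebrain and diencephalic classes, and classes of the same or a like name are set beside each other next.

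In thalamic nuclei, adult over E14 (67 and 789 nuclei), 5 of the 6 genes were at least 2-fold higher and 0 at least 2-fold lower, against 13.5% and 23.1% of 11237 genes. The ratios were 5.65 for Camk2a (5.03 to 6.34), 3.31 for Camk2d (2.98 to 3.67), 3.29 for Camk2b, 2.61 for Camk1d and 2.46 for Camk4. Camk2g alone was lower in the adult, at 45.2 against 68.6 CPM, a ratio of 0.659 (0.495 to 0.865). Camk2d was thus higher in adult thalamic nuclei than at E14, while over all neurons it was lower. In cortical excitatory nuclei (31 adult, 315 E14) the adult over E14 ratios were 12.1 for Camk2a (9.72 to 15.2), 4.55 for Camk4, 3.08 for Camk2b, 2.29 for Camk2g and 1.42 for Camk2d (1.01 to 1.98). In adult inhibitory over E14 forebrain GABAergic nuclei (31 and 1234) the ratio of Camk2a was 3.61 (2.98 to 4.35), the smallest of these neuron classes. In microglia (39 adult, 74 E14 microglia or macrophages) the Camk2d ratio was 1.18 with an interval (0.860 to 1.61) that held 1, and Camk1d was 2.26 times as high in the adult. Camk2b was 10.9 times (5.92 to 21.3) and Camk2a 6.01 times (3.99 to 9.19) as high in adult microglia, where few nuclei held most of the UMIs of both genes. In endothelial nuclei the ratio of Camk2d was 1.11 (0.838 to 1.46), and that of Camk2a was 20.5 (14.5 to 29.6). Adult endothelial nuclei were taken above as background for Camk2a. Of their 203 Camk2a UMIs, 1 nucleus held 53 and 5 nuclei held 55.7%.

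**Figure D3:**
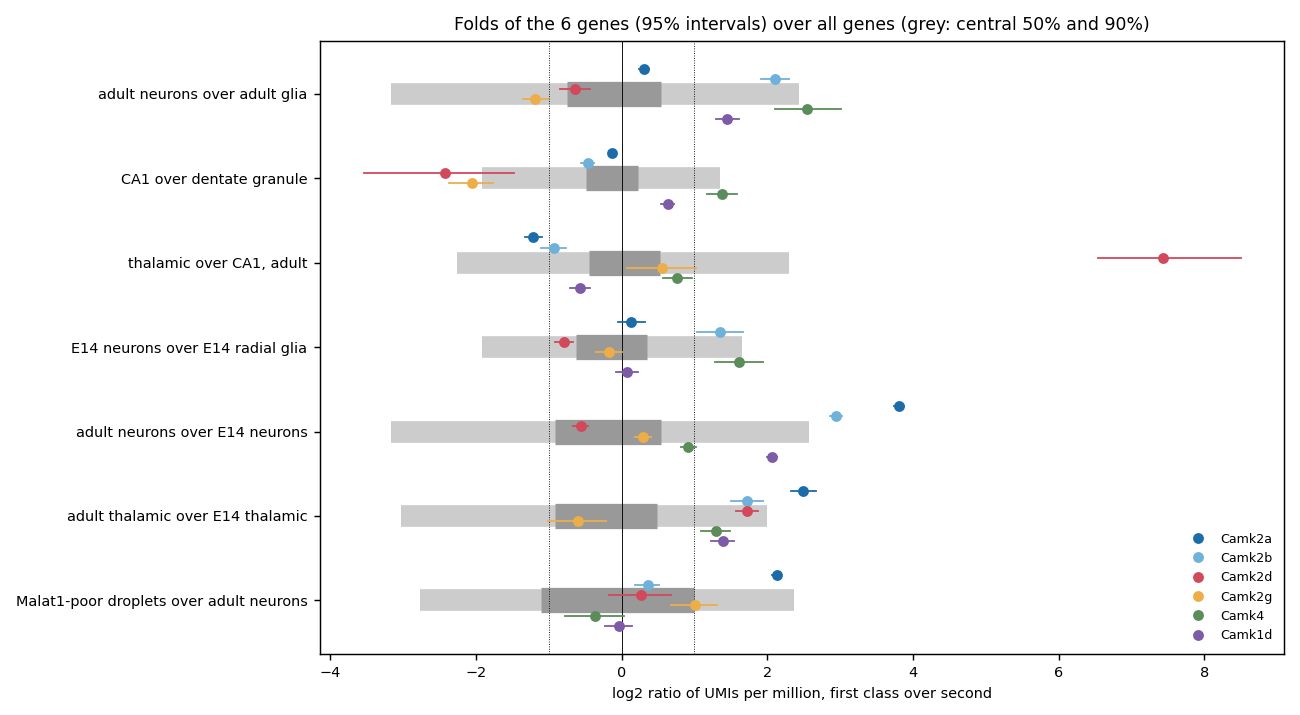
Ratio of the level in the first class over that in the second on a log2 scale for the 7 comparisons, with 1 coloured point and its 95% interval for each gene, grey bars for the central 50% and 90% of all genes compared, and dotted lines at 2-fold. Camk2d lies far outside the grey bar in adult thalamic over CA1 nuclei (173 times), its highest and lowest adult classes. Camk2a does so in adult over E14 neurons (13.99 times).

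The 317 adult droplets with Malat1 under 1.5% of UMIs had a median of 908 UMIs and a median mitochondrial share of 1.73%, against 13834 UMIs and 0.0648% in adult neurons. They held 4939 Camk2a CPM (4751 to 5133), 4.38 times the level of adult neurons (4.20 to 4.57). The ratio was 2.01 among barcodes with a mitochondrial share under 1%, and 1.86 when the limit on Malat1 was 3%. Of the 6 genes 2 were at least 2-fold higher and 0 at least 2-fold lower in these droplets, against 24.8% and 27.1% of 12648 genes. The second gene was Camk2g at 2.00 times (1.60 to 2.48), which stood on the 2-fold line and was at 1.22 with a mitochondrial share under 1%. From 1 to 2% of Malat1, around the limit, lay 70 of the 1609 barcodes. Camk2b (1.28 times), Camk2d (1.21), Camk4 (0.779) and Camk1d (0.971) were closer to the neurons, but Camk2d was 5.08 times as high with the limit at 3%. That limit moved 32 thalamic nuclei from the neurons to the droplets. They held 304 of the 419 Camk2d UMIs of barcodes with Malat1 from 1.5 to 3%. At the 1.5% limit Camk2a held 84.9% of Camk2 UMIs (83.6 to 86.1), and the Camk2a to Camk2b ratio was 8.08 against 2.36 in adult neurons. A Camk2a UMI was present in 88.6% of them, or 85.2% of the 142 with at least 1000 UMIs after thinning, against 62.7% of thinned neurons.

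Marker genes split these droplets into unlike groups. With astrocyte markers there were 33, and their Camk2a level was 11616 CPM (10680 to 12612), the highest of all groups of more than 30 barcodes, with Camk2a at 95.1% of Camk2 UMIs. The 62 with neuron markers held 2464, the 23 with thalamic markers 838 and the 18 with oligodendrocyte markers 1834. Thalamic markers thus came with the lowest Camk2a level of these groups, and with Camk2d at 365 CPM and 22.4% of Camk2 UMIs (14.9 to 31.5). The remaining 188 fitted no class and held 5931.

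Over the whole range of the Malat1 share, the glial levels of Camk2a went down as Malat1 went up. In droplets with astrocyte markers Camk2a stood at 11616 CPM with Malat1 under 1.5%, then 3574 at 1.5 to 3%, 2288 at 3 to 5%, 1257 at 5 to 7% and 208 at 7% or more (33, 11, 44, 39 and 20 barcodes). Camk2g went the other way in the same bins, at 164, 242, 361, 408 and 745 CPM. In the astrocytes richest in Malat1, Camk2g therefore stood above Camk2a in UMIs, and the genes are of near-equal length (6.40 and 7.46 kb of exons). The summed pan-neuronal markers went from 2434 through 2324, 934 and 735 to 129.9 CPM across these bins, with 5, 6, 6, 5 and 4 of the 6 markers present. They were thus highest where Camk2a was highest. For each pan-neuronal UMI there were 4.77, 1.54, 2.45, 1.71 and 1.60 Camk2a UMIs across these bins, the last from only 15 pan-neuronal UMIs. The value was 0.253 in adult neurons, 0.565 in Malat1-poor droplets with neuron markers and 1.30 in all Malat1-poor droplets. The part of RNA from outside the nucleus or from other cells in the glial Camk2a was not tested.

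Oligodendrocytes gave the same order, from 1834 Camk2a CPM with Malat1 under 1.5% (18 barcodes) to 406 at 3 to 5% (80) and 44.8 at 7% or more (69), while their pan-neuronal markers went from 3746 to 295 and 65.4. In CA1, CA3 and dentate granule nuclei together the level differed less once Malat1 was above 1.5%, from 1423 at 1.5 to 3% to 1185 at 7% or more, against 4311 below 1.5%. Thalamic nuclei held 612 Camk2d CPM at 1.5 to 3% and 437 at 3 to 5%, so the high thalamic Camk2d was present in both bins.

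**Figure D4:**
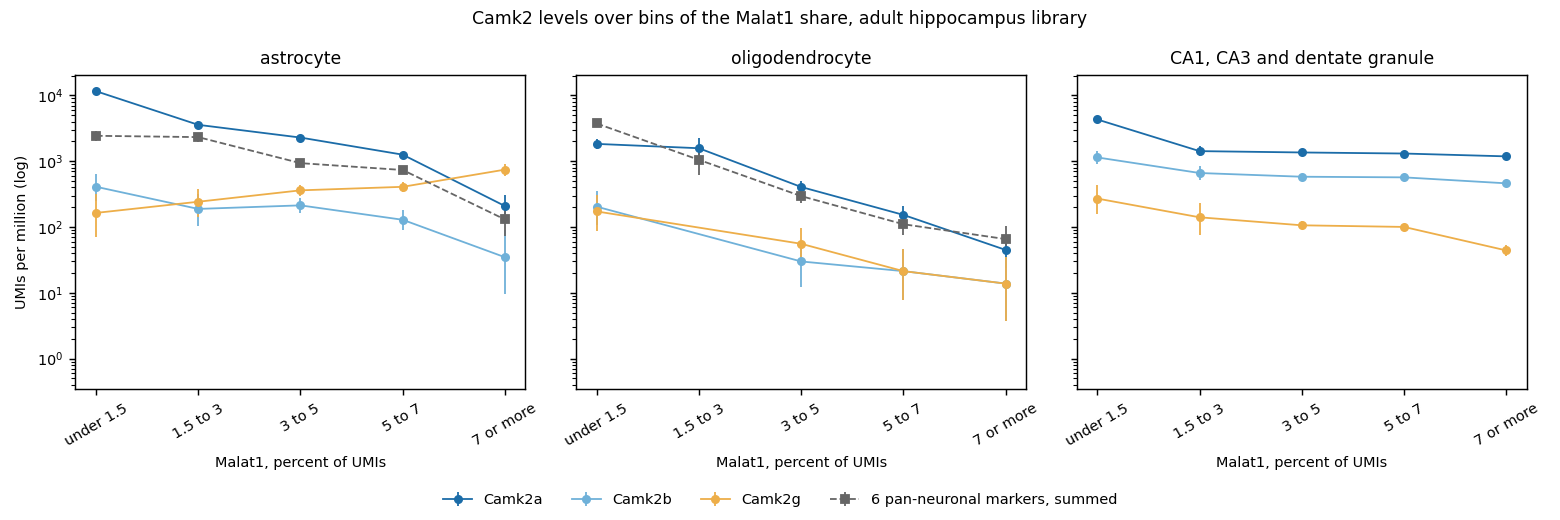
Levels of Camk2a, Camk2b and Camk2g in the adult library over 5 bins of the Malat1 share of UMIs (in percent), as CPM on a log axis with 95% Poisson intervals, for barcodes with astrocyte markers (left), oligodendrocyte markers (middle) and hippocampal excitatory markers (right). The dashed grey line is the sum of 6 pan-neuronal markers, and bins with 0 UMIs of a gene are not drawn; in astrocytes Camk2a goes from 11616 to 208 and Camk2g from 164 to 745.

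A further list of 40 genes of the pathway (calmodulins, other CaM kinases, inhibitors, calcineurin, buffers, phosphatases and substrates) was set beside the 6. In adult neurons over glia 20 of 39 measured were at least 2-fold higher and 4 lower (of all genes, 17.0% and 18.9%), with a median log2 ratio of 1.01 beside -0.14 over all genes. Calm2, a calmodulin gene, stood at 771 CPM in neurons and 337 in glia, Camkk2, an upstream CaM kinase kinase, at 86.7 and 34.3, and Ppp3ca, the calcineurin catalytic subunit, at 2807 and 948. In adult over E14 neurons 16 of 40 were higher and 4 lower (of all genes, 16.1% and 22.9%), with a median of 0.47 beside -0.18. Nrgn, a postsynaptic calmodulin-binding protein, stood at 440.4 against 1.47 CPM. Gap43, a growth cone protein that binds calmodulin, was lower, at 55.0 against 311.

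Thalamic over CA1 nuclei had 6 pathway genes of 35 higher and 11 lower (of all genes, 12.8% and 12.9%). Pcp4, a calmodulin regulator, stood at 799 in thalamic and 4.93 CPM in CA1 nuclei, and Camk1 at 48.8 and 1.45. Nrgn was in the opposite order, at 26.2 and 459, as was Ppp3ca, at 800.0 and 2937. CA1 over dentate granule nuclei had 2 higher and 5 lower of 36 (of all genes, 6.92% and 11.0%). E14 neurons over radial glia had 9 and 1 of 38 (of all genes, 12.2% and 13.8%), and adult over E14 thalamic nuclei 12 and 5 of 36 (of all genes, 13.5% and 23.1%). In the Malat1-poor droplets over adult neurons 11 of 38 were higher and 7 lower, beside 24.8% and 27.1% of all genes. There Camk2n1, an inhibitor of CaMKII, stood at 1625 against 178 CPM, and Nrgn at 1367 against 440.4. Dlgap1, a postsynaptic scaffold gene, was in the opposite order at 963 against 3362.

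The genes most like each member in level over the 11 adult classes, by Pearson's r of log2(CPM + 5) among genes with at least 200 UMIs, are given as a description, since all classes share 1 library. For Camk2a they included Arf3 (r = 0.89) and Abl2 (0.88), and for Camk2b Add2 (0.98) and Gm41505 (0.98). For Camk2d they were Prr13 (r = 0.95), Camk1 and Gm16599 (0.87), for Camk2g Fads1 (r = 0.87), Pcsk1n and Sirt3 (0.87), for Camk4 Ptpn5 (r = 0.96), St6gal2 and Chchd6 (0.94) and for Camk1d Nphp4 (r = 0.95), Nup93 and Gm12296 (0.94). Over the 13 E14 classes the nearest gene was Scml4 for Camk2a (r = 0.91), Macrod2 for Camk2b (0.95), Dnmt3a for Camk2d (0.92), Zfyve1 for Camk2g (0.86), Tmem150c for Camk4 (0.93) and C2 for Camk1d (0.89). No gene was among the 3 nearest of a member in both libraries.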

How the data were processed

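Single-nucleus RNA-seq by Slide-tags was performed on 1 adult and 1 E14 mouse brain section. The deposited matrices held whole UMI counts per gene and barcode, made by the authors with Cell Ranger (6.1.2 for the adult and 7.0.1 for the E14 library, per the file headers) against mm10 per the submitters' notes, with intronic reads counted. Background RNA was subtracted with CellBender from E14 counts in the study's methods, and whether the deposited E14 table came before that step is not given in the sources used here. Barcodes with at least 500 UMIs and a mitochondrial share under 5% were kept, 15346746 UMIs in the adult and 58923882 in the E14 library.

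Each nucleus was given the class whose markers fitted its UMIs best by a Poisson likelihood, with a margin of at least 3 over the next class. The scoring rule was set after the data were seen, and 15 adult and 562 E14 nuclei had a margin under 6. The members, pathway list, markers and comparisons were chosen with earlier results of these data known. E14 nuclei were kept at any Malat1 share, and 189 E14 nuclei scored as striatal were left unnamed, since 1 marker was detected. Scrublet marked 6 adult and 4 E14 barcodes as doublets, too few for a working call, so none was removed in the main analysis, and the 21 and 653 highest scores were left out as an alternative.

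Levels were summed counts as CPM with exact 95% Poisson intervals, shares had exact binomial (Clopper-Pearson) intervals and ratios the exact interval of a binomial share. Such intervals cover counting error only, and nuclei of 1 library are not replicates. Shares of nuclei were also taken after thinning to 1000 UMIs. Ratios used genes with at least 50 UMIs in both groups together, with a threshold of 2-fold. Named were the 6 members, up to 3 pathway genes of a role, picked after their values were seen, and the 3 genes nearest to each member, a few of which are not reported here. Lengths came from GENCODE exons and gene spans, promoters from RefSeq (GRCm38.p6). Python 3.11.15, numpy 2.4.6, scipy 1.17.1, pandas 2.3.3, scanpy 1.11.5, matplotlib 3.10.9, R 4.3.3 and Seurat 5.3.0 were used, and the scripts were tested on simulated counts.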

Additional observations from a re-analysis of the deposited data

Results flagged for a closer look

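Between classes, adult over E14 ratios of 2 genes had opposite directions with intervals that did not hold 1, and the difference between classes was not tested, since each tissue was 1 library. Camk2g was higher in the adult in cortical excitatory nuclei (2.29 times, 1.75 to 2.97) and in inhibitory over forebrain GABAergic nuclei (1.99 times, 1.49 to 2.62). It was lower in thalamic nuclei (a ratio of 0.659, 0.495 to 0.865). Camk4 was higher in the adult in cortical excitatory (4.55 times), thalamic (2.46 times) and inhibitory nuclei (2.75 times). In microglia its ratio was 0.152, with an interval of 0.00368 to 0.952, from 1 adult UMI in 39 nuclei against 20 E14 UMIs in 74 nuclei.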

How the results depend on the processing

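Of the main shares, ratios and counts, 166 values under an alternative stayed within counting error or 1.5 times of the reported one and 42 did not. No class ratio of at least 2-fold changed direction. The Camk2a over Camk2d ratio of E14 neurons, 0.691 in UMIs, was 2.08 per kb of exons and 2.76 per kb of span. In Malat1-poor droplets over neurons, with the limit at 3%, Camk2b went from 1.28 to 0.718 and Camk4 from 0.779 to 1.21. E14 nuclei poor in Malat1 and a class margin of 6 were alternatives chosen after the data were seen. The Camk2a share of Camk2 UMIs in Malat1-poor droplets, 84.9%, was 83.1% with at least 1000 UMIs, 67.6% with a mitochondrial share under 1%, 77.8% as a mean of nuclei, 74.5% with Malat1 under 3%, 89.1% per kb of gene span and 87.1% per kb of exons. In adult neurons it was 61.4% as a mean of nuclei, 64.7% with the Malat1 limit at 3%, 72.9% per kb of span and 68.5% per kb of exons. The Camk2d share in thalamic nuclei was 35.2% with the limit at 3%, 14.6% per kb of span and 17.5% per kb of exons, and in E14 neurons 32.2% with Louvain clusters, 30.2% as a mean of nuclei, 13.0% per kb of span and 15.3% per kb of exons. The thalamic over CA1 ratio of Camk2d was 80.6 with Louvain clusters. In the order neurons over glia, CA1 over dentate granule, thalamic over CA1, E14 neurons over radial glia, adult over E14 neurons, adult over E14 thalamic nuclei and Malat1-poor droplets over neurons, the genes past 2-fold numbered 4821, 2032, 2476, 3873, 6140, 4117 and 6568. At 3-fold they numbered 2988, 1172, 1435, 1892, 3795, 2409 and 3867, fewer by construction, and without the limit on low counts 8273, 4440, 5006, 6857, 9573, 7340 and 11486. With Malat1 under 3% the last was 3815. Members past 3-fold were 2 of 4 in neurons over glia, 1 of 2 in thalamic over CA1, 1 of 2 in E14 neurons over radial glia, 3 of 5 in thalamic nuclei by age and 1 of 2 in Malat1-poor droplets. In Malat1-poor droplets 1 member was past 2-fold with Louvain clusters, without Malat1 and mitochondrial UMIs, with Malat1 under 3% (Camk2d in place of Camk2a) and with a class margin of 6. Where no construction shows it, the cause was not tested. No paired analysis was possible because each tissue was 1 library, and for that reason no replicate could be left out. Depth limits the rare members most: the 10 CA1 UMIs of Camk2d and the 1 adult microglial UMI of Camk4 leave wide intervals.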
